A study of Mus musculus with 18 samples.

Results

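The transcripts of 10 genes of the BCL2 family were followed in mouse mammary tumors and normal mammary glands. The members were listed by name, with earlier results of these data known, and are the survival genes Bcl2, Bcl2l1, Bcl2l2 and Mcl1, the pore-forming effectors Bax and Bak1, and the BH3-only genes Bcl2l11, Bid, Bad and Bmf. They are 10 of the 55450 genes in the deposited table, and all 10 passed the filter on low counts that kept 19186 genes. RNA was sequenced from 18 female C57Bl/6 mice, with 1 library per mouse. The 3 tumor models gave 5 libraries each, and wild-type glands gave 3. The B1/P/Rbf model has the genotype Brca1fl/fl/Trp53fl/fl/TgK18GT121Tg/+, the B1/P model Brca1fl/fl/Trp53fl/fl and the P/Rbf model Trp53fl/fl/TgK18GT121Tg/+. Floxed Brca1 and Trp53 are deleted by Cre recombinase, which was delivered to the mammary ducts of adult females in an adenovirus. The transgene expresses, under the keratin 18 promoter and after Cre, a fragment of SV40 large T antigen that binds the retinoblastoma protein and its relatives. All 15 tumors thus carried floxed Trp53, and the glands carried neither floxed allele nor the transgene.

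Cells commit to intrinsic apoptosis at the outer mitochondrial membrane. Bax and Bak1 form pores there that release cytochrome c, and the survival proteins hold both of them and the BH3-only proteins in check. BH3-only proteins report stress. Bcl2l11 encodes BIM, Bid encodes a protein cleaved by caspase-8, Bad responds to growth factor signalling and Bmf to loss of attachment. In the mammary gland these genes are known for the clearing of luminal cells during lumen formation and of the epithelium at involution, and BCL2 marks hormone receptor-positive human breast cancers. Several family genes, Bax among them, are known targets of p53.

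The promoter of Mcl1 is shown because this gene stood furthest apart in a single tumor, and that of Bcl2l11, also highest in that tumor, because it held the only forkhead word among the members. Bmf was highest in the same tumor too, and its 3 windows held none of the words searched. The 250 bases before the RefSeq start site were read 5′ to 3′ from RefSeq on GRCm38.p6, from chr3:95658471-95658720 for Mcl1 and chr2:128125788-128126037 for Bcl2l11, both on the plus strand. Capitals mark the forkhead word GTAAACA, which was searched on both strands together with 4 E2F words, TTTCCCGC, TTTGGCGC, TTTCGCGC and TTTGCCGC.
Mcl1: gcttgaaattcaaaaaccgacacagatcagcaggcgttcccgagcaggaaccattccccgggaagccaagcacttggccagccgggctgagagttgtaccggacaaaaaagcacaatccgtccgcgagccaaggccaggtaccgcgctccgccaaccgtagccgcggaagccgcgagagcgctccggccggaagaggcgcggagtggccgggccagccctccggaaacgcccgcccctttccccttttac
Bcl2l11: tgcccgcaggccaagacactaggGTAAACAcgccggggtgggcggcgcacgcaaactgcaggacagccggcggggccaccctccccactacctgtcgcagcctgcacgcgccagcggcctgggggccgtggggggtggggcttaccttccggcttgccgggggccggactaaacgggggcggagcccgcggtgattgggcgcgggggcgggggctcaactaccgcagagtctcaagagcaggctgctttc
The forkhead word began 227 bases before the Bcl2l11 start site and was in the windows of no other member, while 3.17% of 32851 promoter windows held it. Of the E2F words, 1 was found among the 16 windows of the 10 members, at another start site of Bcl2l1, against 1.86% of all windows. Neither an E2F nor a forkhead word was in the Mcl1 window. These are matches of letters, and binding was not measured.

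Levels were compared between genes as CPM, a gene's count relative to the scaled total of its library, per kilobase of merged exons. Mcl1, a short-lived survival protein, was the most abundant member in all 4 groups, at 82.4 ± 6.20 (SD, n = 3) CPM per kb in normal gland, 62.0 ± 26.3 (n = 5) in B1/P and 69.7 ± 16.9 (n = 5) in P/Rbf tumors. Bcl2 was the least abundant in normal gland at 4.35 ± 0.526 (n = 3), in B1/P/Rbf tumors at 3.85 ± 1.25 (n = 5) and in P/Rbf tumors at 3.34 ± 2.61 (n = 5) CPM per kb. In B1/P tumors Bmf took the lowest place at 5.32 ± 0.918 (n = 5), below Bcl2 at 8.42 ± 2.35. Between these ends Bak1, Bax, Bcl2l1 and Bcl2l2 held places from the second to the sixth in each group, and in the tumor groups the ranges of neighbours in this order overlapped. Mcl1 made up 68.3% to 69.4% of the summed survival members per kb in normal gland and 51.8% to 74.9% in 14 of the 15 tumors. The exception was B1/P/Rbf tumor 208863, where Mcl1 was 97.8% of the sum.

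**Figure D1:**
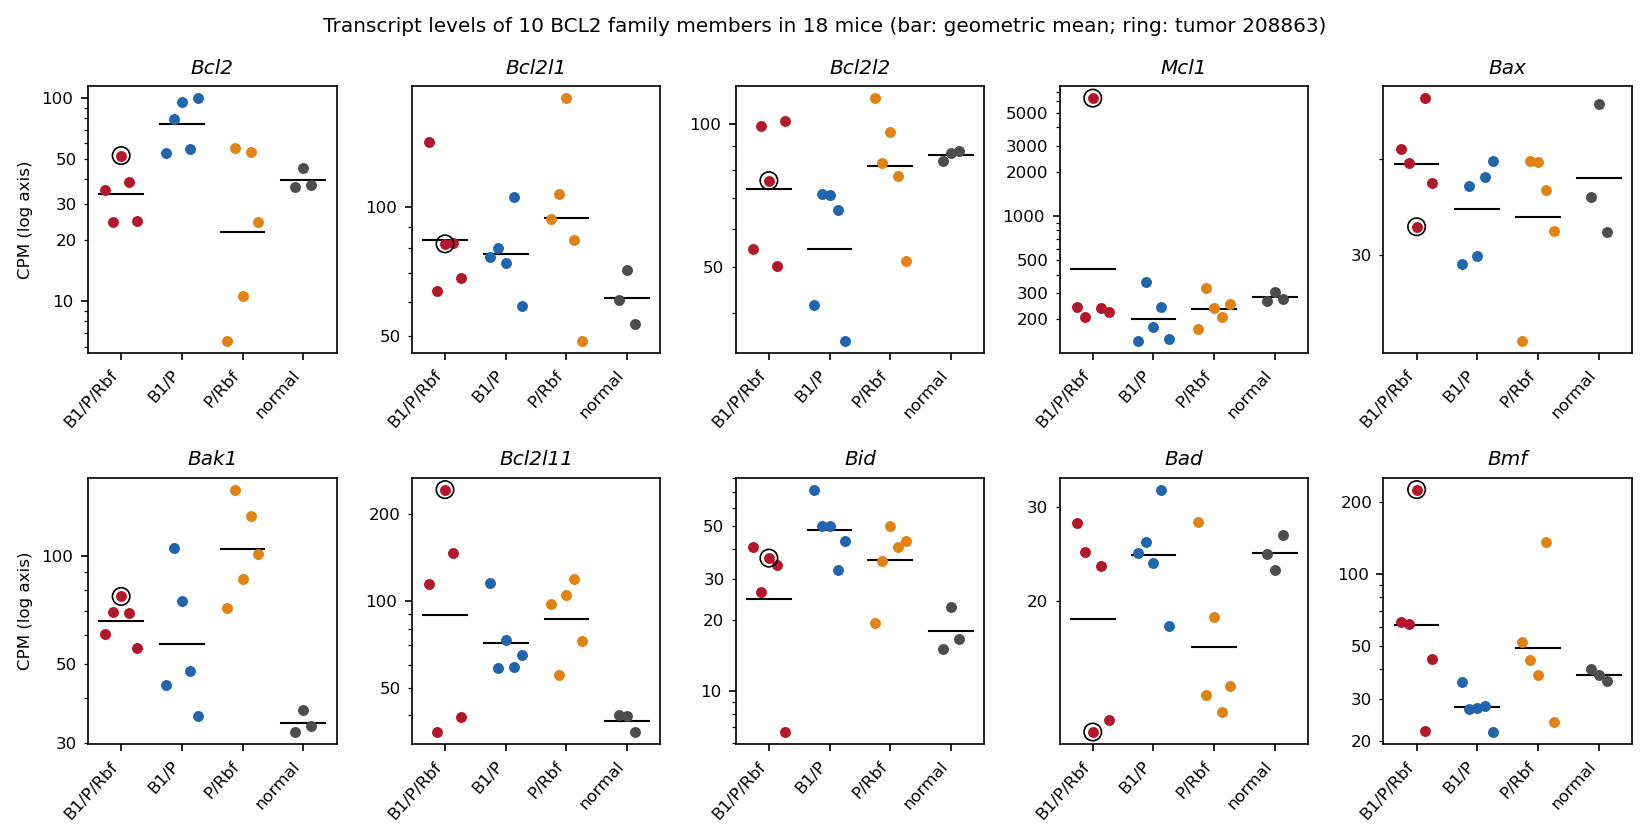
CPM of the 10 members on log axes by group, with each point a mouse, bars the geometric means and rings tumor 208863. Mcl1 in the ringed tumor stands at 6317 CPM, while the other 17 samples lie between 142 and 357 CPM.

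All values below are CPM scaled by edgeR's TMM factors, and a gene was called when its Benjamini-Hochberg adjusted p in edgeR's quasi-likelihood test over 19186 genes was 0.05 or less. Log2 fold changes are given with standard errors. The tissue is bulk, so fewer cells of a type and less RNA per cell cannot be told apart. Trp53 RNA was 6.75 to 24.3 CPM in the tumors and 54.4 to 71.8 CPM in normal gland. Brca1 RNA was 4.61 to 5.99 CPM in normal gland, 8.13 to 28.0 in B1/P, 21.1 to 45.0 in B1/P/Rbf and 44.9 to 116 in P/Rbf tumors, so all B1/P tumors and 4 of 5 B1/P/Rbf tumors were below every P/Rbf tumor, and none was below normal gland. Tumor 208863 had the highest Brca1 value of the 10 tumors with floxed Brca1, within the P/Rbf range. By RT-qPCR the paper reports only a partial loss of Brca1 expression in this tumor. The normal glands held muscle, fat and lymphocytes that the tumors largely lacked: summed over 5 muscle markers they had 21780 to 42840 CPM against 0.920 to 581 in tumors, over 5 adipocyte markers 9182 to 13250 against 2.76 to 172, and over 8 lymphocyte markers 391 to 531 against 1.19 to 15.2. All 18 of these markers were called lower in each tumor group. Myeloid markers went the other way. Of 6 macrophage markers, summing to 176 to 262 CPM in normal gland, 2 were called higher in B1/P/Rbf (163 to 584 CPM), 5 in B1/P (275 to 1202 CPM) and 1 in P/Rbf tumors (196.5 to 443 CPM). Of 4 neutrophil markers tested, 3, 4 and 1 were called higher in these groups. Of 5 endothelial markers, 2, 2 and 4 were called lower. The summed level of 5 genes of dividing cells was 71.5 to 72.8 CPM in normal gland and 657 to 3265 CPM in tumors. Markers of other cells differed between the tumor groups. The sum of 6 epithelial markers was 810 to 2435 CPM in B1/P, 2874 to 5534 in B1/P/Rbf, 4340 to 8568 in P/Rbf tumors and 1504 to 1954 in normal gland, and 3 and 5 of the 6 were called higher than B1/P in the B1/P/Rbf and P/Rbf groups. The sum of 5 basal and myoepithelial markers was 329 to 1844 CPM in B1/P, 34.8 to 275 in B1/P/Rbf and 64.9 to 1203 in P/Rbf tumors, with 1 of 5 called lower than B1/P in each. The sum of 6 fibroblast markers was 2446 to 12640 CPM in B1/P, 799.5 to 4638 in B1/P/Rbf and 1211 to 3934 in P/Rbf tumors, with 0 and 2 of 6 called lower. The sum over dividing cell markers was 657 to 1182 CPM in B1/P, 1147 to 2134 in B1/P/Rbf and 1094 to 3265 in P/Rbf tumors, with 1 and 3 of 5 called higher than B1/P. The muscle sum was 581 CPM in B1/P tumor 248662 and 1.42 to 9.14 CPM in the other B1/P tumors. It was 4.51 to 22.5 CPM in B1/P/Rbf and 0.920 to 3.88 in P/Rbf tumors, with 3 and 4 of 5 called lower. Its median was 6.20 CPM in B1/P, 14.9 in B1/P/Rbf and 2.87 in P/Rbf tumors. The part of these differences in the comparisons of the members was not tested.

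Counted over the 10 members, edgeR called 2 in B1/P/Rbf against B1/P (Mcl1 and Bmf) where 16.7% of all genes were called, and 1 in P/Rbf against B1/P (Bak1) where 19.2% were. It called 0 in B1/P/Rbf against P/Rbf, where 0.281% of all genes were called. In this comparison 2 members had an unadjusted p under 0.05, as did 16.1% of all genes. DESeq2, which gave no adjusted p for Mcl1, and limma-voom also called 0 members there, beside 5.53% and 0.136% of all genes. Against normal gland edgeR called 2 in B1/P/Rbf (Bak1 and Bcl2l11) of 37% called, 2 in B1/P (Bak1 and Bid) of 33.8% and 1 in P/Rbf (Bak1) of 37.7%. The members' share was near that of all genes in the first of these comparisons and below it in the 4 others with calls. No member was called lower in this fit in any comparison, with Bcl2 at an unadjusted p under 0.05 in both comparisons with B1/P and Bak1 in B1/P/Rbf against P/Rbf. Without tumor 208863 the counts for B1/P/Rbf against B1/P and against normal were both 0, where 13% and 33.4% of all genes were called. The median log2 difference of the 10 members against normal was 0.59 for B1/P/Rbf, 0.18 for B1/P and 0.30 for P/Rbf tumors, beside 0.05, 0.12 and 0.06 over all genes tested.

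Survival genes were compared first between the tumor groups. Mcl1 was 239, 204, 6317, 235 and 224 CPM in the 5 B1/P/Rbf tumors and 142, 357, 175, 146 and 239 CPM in the 5 B1/P tumors. The third of these tumors, 208863, was 27.5-fold the median of the other 14 tumors, and the other 4 of its group lay inside the B1/P range. The group was called higher than B1/P by 2.77 ± 0.85 on the log2 scale (adjusted p = 0.0338), and without tumor 208863 the difference was 0.09 (adjusted p = 0.854). The call was also lost when any of B1/P tumors 225068, 246361, 255232 or 248662 was left out, at an adjusted p of 0.0720, 0.0690, 0.0700 and 0.0600. With limma-voom and quantile normalization the difference was 1.17 (adjusted p = 0.278). A term for the split of the libraries by number (2.68, adjusted p = 0.109) and a fit of only these groups (2.80, adjusted p = 0.101) ended the call too. It held without TMM (adjusted p = 0.0326), with upper quartile scaling (0.0331) and without a filter (0.035). Against P/Rbf tumors (325, 237, 253, 171 and 205 CPM) the log2 difference was 2.60 ± 0.84 (adjusted p = 0.146) with tumor 208863 and -0.08 without it. In normal gland Mcl1 was 265, 305 and 274 CPM.

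The genes beside Mcl1 were examined in tumor 208863 after this value was seen. Mcl1 lies on chromosome 3 of GRCm38 at chr3:95658788-95663176. Of 56 genes within 1 Mb averaging 5 CPM or more, 9 were 8-fold or more above the median of the other tumors, and all 9 lay in 1 stretch of 391.8 kb, chr3:95296096-95687917. They were Anxa9, Cers2, Setdb1, Arnt, Golph3l, Ensa, E330034L11Rik, Mcl1 and Adamtsl4, at 19.6-fold to 43.2-fold with a median of 28.1-fold. The filter included tumor 208863 itself, and Anxa9 and E330034L11Rik passed it only with that tumor. With the mean taken over the other 14 tumors, 7 of 51 genes were this high, at 22.6-fold to 43.2-fold. Cers2 encodes a ceramide synthase, Setdb1 a histone H3 lysine methyltransferase and Arnt the common partner of HIF and aryl hydrocarbon receptors. Setdb1 was 3579 CPM in tumor 208863 and at most 145 CPM in the other 14 tumors, and Arnt was 3132 CPM against at most 154 CPM. Within the stretch the lysosomal protease genes Ctsk and Ctss were 1.53-fold and 3.99-fold the median of the other tumors.

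The edges of the stretch were sharp. Mindy1, whose end overlaps the start of Anxa9, was 1.26-fold, and Ecm1, the next such gene after Adamtsl4, was 1.77-fold the median of the other tumors. The 45 genes outside the stretch had log2 differences of -1.86 to 0.83 with a median of -0.10. In each of the other 14 tumors the median of the 9 genes was between -0.53 and 0.57 on the same scale. These genes were picked for being high in tumor 208863, and the scale is centred on the other tumors. Medians of this size are thus partly set by the choice of genes and scale. Anxa9 and E330034L11Rik also passed the filter only with tumor 208863. Across the chromosome, 33 of 615 genes (5.37%) were 8-fold or more higher in tumor 208863, against 107 of 11975 (0.894%) on the other chromosomes. With tumor 208863 left out of the filter these were 27 of 586 (4.61%) and 94 of 11576 (0.812%). Further along the same chromosome they included Wars2, Wdr3, Gdap2, Tent5c and Man1a2, between chr3:99141068-100685503, and Sike1, Nras and Ampd1, between chr3:102995708-103099720. Nras, a RAS oncogene, was higher by 5.14 on the log2 scale. The chromosome was chosen because it holds Mcl1, and the 33 genes include the 9 of the stretch. Its higher share is thus partly set by that choice, and no such share is given for another tumor. DNA copy number was not analysed here.

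**Figure D2:**
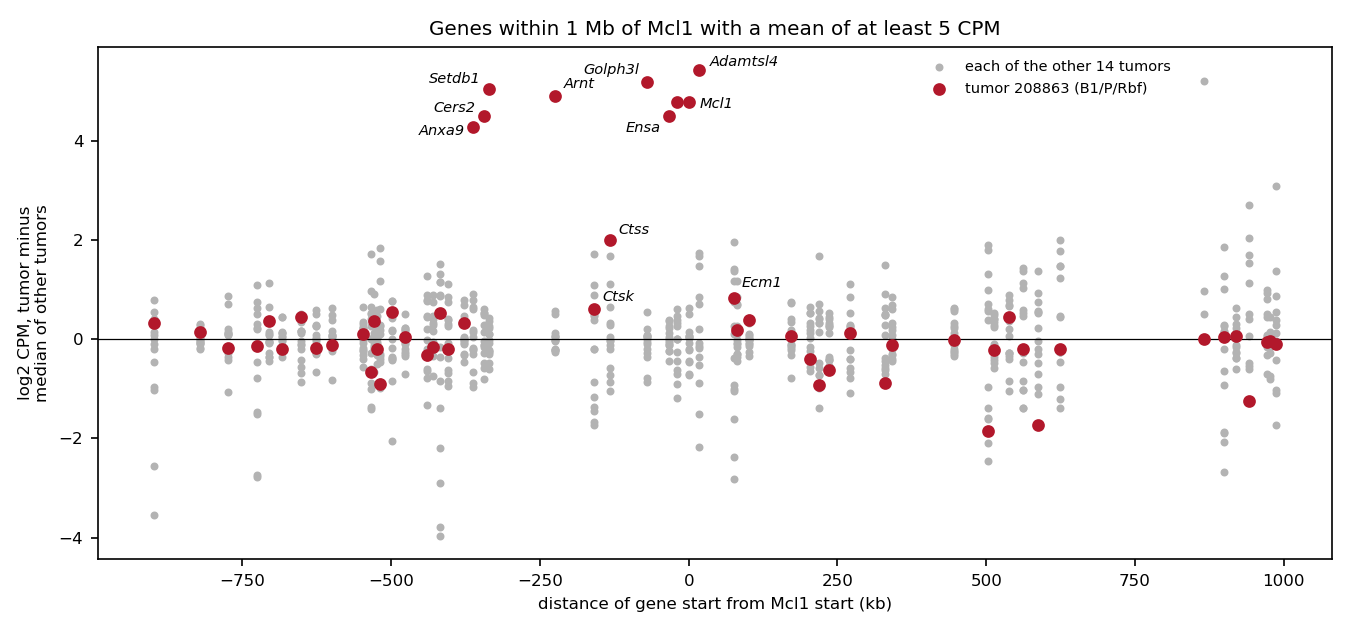
Genes within 1 Mb of Mcl1, by the distance of their start from the Mcl1 start (kb) and by log2 CPM in a tumor minus the median of the other tumors. Red points are tumor 208863, where 9 genes of a 391.8 kb stretch stand at 4.28 or more, and grey points are each of the other 14 tumors.

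Bcl2, the founding survival gene, was lower in both groups with the transgene than in B1/P tumors, and neither difference passed the test. It was 54.0, 79.2, 95.9, 100.1 and 56.2 CPM in B1/P, and 35.5, 24.6, 52.2, 38.9 and 24.9 CPM in B1/P/Rbf tumors. All 5 B1/P/Rbf tumors thus lay below all 5 B1/P tumors, while 10.5% of all genes did not overlap between these groups, and the log2 difference was -1.13 ± 0.46 (adjusted p = 0.102). It passed in a fit of only these groups (-1.10, adjusted p = 0.0237) and without P/Rbf tumor 287822 (-1.13, adjusted p = 0.0457), and not with DESeq2 (adjusted p = 0.0605) or limma-voom (adjusted p = 0.0698). The epithelial sum did not overlap between these groups either, and was higher in B1/P/Rbf tumors. Nor did the basal and myoepithelial sum, which was lower in B1/P/Rbf (34.8 to 275 CPM) than in B1/P tumors (329 to 1844 CPM). P/Rbf tumors were the most uneven, with 57.0, 10.6, 24.6, 6.42 and 54.3 CPM, and 2 of the 5 overlapped B1/P. Their log2 difference from B1/P was -1.33 ± 0.46 (adjusted p = 0.0523). DESeq2 gave an adjusted p of 0.0197 and limma-voom 0.0102 for it, and it passed when P/Rbf tumor 287842 (-1.63, adjusted p = 0.0273) or 290845 (-1.64, adjusted p = 0.0328) was left out. It did not pass without a filter on low counts (adjusted p = 0.0683), in a fit of only these groups (adjusted p = 0.136) or with a term for the split of the libraries by number (adjusted p = 0.153). Bcl2 was lowest in P/Rbf tumors 287845 and 287822, where Bcl2l1 was 180 and 93.8 CPM. In P/Rbf tumors 287842, 290860 and 290845 Bcl2l1 was 107, 48.7 and 83.6 CPM. Normal gland had 36.7, 45.4 and 37.3 CPM of Bcl2, inside the P/Rbf and B1/P/Rbf ranges and below every B1/P tumor, as 41.4% of all genes did not overlap. B1/P differed from normal by 0.95 ± 0.54 (adjusted p = 0.187).

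Bcl2l1, which encodes BCL-XL, and Bcl2l2, which encodes BCL-w, were not called in the 6 comparisons. Bcl2l1 was 63.7 to 142 CPM in B1/P/Rbf, 58.7 to 106 in B1/P, 48.7 to 180 in P/Rbf and 53.2 to 71.3 in normal gland, and its largest log2 difference was 0.74 ± 0.34 for P/Rbf against normal (adjusted p = 0.103). Without TMM it was called higher than normal in B1/P/Rbf (0.863, adjusted p = 0.0445) and P/Rbf tumors (0.985, adjusted p = 0.025). That setting moved the median of all genes by 0.37 and 0.27 in these comparisons. Bcl2l2 was 83.7 to 87.7 CPM in normal gland and 35.0 to 71.1 CPM in B1/P tumors, which did not overlap, as was the case for 41.4% of all genes. The difference was -0.60 ± 0.29 (adjusted p = 0.127), with a 95% interval of -1.22 to 0.02, and it was called with the stricter filter on low counts (-0.86, adjusted p = 0.0364).

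The effectors behaved unlike each other. Bax was 23.3 to 47.9 CPM over all 18 mice, and none of its 6 log2 differences exceeded 0.21 in size. For B1/P/Rbf against B1/P its interval was -0.19 to 0.58, and for P/Rbf against B1/P -0.41 to 0.37. The spread of Bax within tumor groups was 0.248 (SD, log2), at the 4.2nd percentile of genes averaging 5 CPM or more. Bak1 was 32.2, 37.1 and 33.5 CPM in the 3 normal glands and at least 35.8 CPM in all tumors. In P/Rbf tumors it was 153, 85.9, 101, 71.7 and 129 CPM, in B1/P/Rbf 60.6, 69.6, 77.0, 69.2 and 55.4 CPM, and in B1/P 43.7, 105, 74.8, 35.8 and 47.7 CPM. P/Rbf and B1/P/Rbf did not overlap normal gland, nor did 46.5% and 50.5% of all genes in these comparisons, and the B1/P group overlapped it by its lowest tumor.

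Bak1 was called higher than normal in each tumor group, by 1.66 ± 0.33 in P/Rbf (adjusted p = 0.000859), 0.95 ± 0.32 in B1/P/Rbf (adjusted p = 0.0270) and 0.84 ± 0.32 in B1/P tumors (adjusted p = 0.0499). These comparisons share the same 3 glands. The P/Rbf call held without any library, whereas the B1/P/Rbf call was lost without tumor 208863 (0.89, adjusted p = 0.0515) or normal gland 330154 (0.94, adjusted p = 0.0835) or 330156 (0.95, adjusted p = 0.0813), and the B1/P call in 13 of 18 such fits. P/Rbf also exceeded B1/P, by 0.82 ± 0.27 (adjusted p = 0.0423), although its 3 lower tumors lay inside the B1/P range and 9 of 18 fits that left out 1 library lost the call. It was also lost with limma-voom (adjusted p = 0.0543), without TMM (0.0586), with upper quartile scaling (0.0583), without a filter (0.0585), with the stricter filter (0.0794) and in a fit of only these groups (0.121), and was kept with DESeq2 (0.81, adjusted p = 0.0185). The epithelial sum was above that of all B1/P tumors in all 5 P/Rbf tumors. Between B1/P/Rbf and P/Rbf the log2 difference was -0.71 ± 0.27 (adjusted p = 0.201). An earlier analysis of these data inferred a split of the libraries by the submitters' numbers, which no label names as a batch, and the methods describe all 18 as pooled for sequencing. The first 8 hold all B1/P/Rbf and 3 B1/P tumors, and the other 10 the rest. With a term for this split the Bak1 difference from normal was 1.66 (adjusted p = 0.000341) in P/Rbf, 0.11 (adjusted p = 0.888) in B1/P/Rbf and 0.28 (adjusted p = 0.566) in B1/P tumors. With the same term P/Rbf exceeded B1/P by 1.37 (adjusted p = 0.0157), and B1/P/Rbf differed from P/Rbf by -1.54 (adjusted p = 0.157). The split rests on 2 B1/P libraries against 3, and genotype and split are otherwise confounded.

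**Figure D3:**
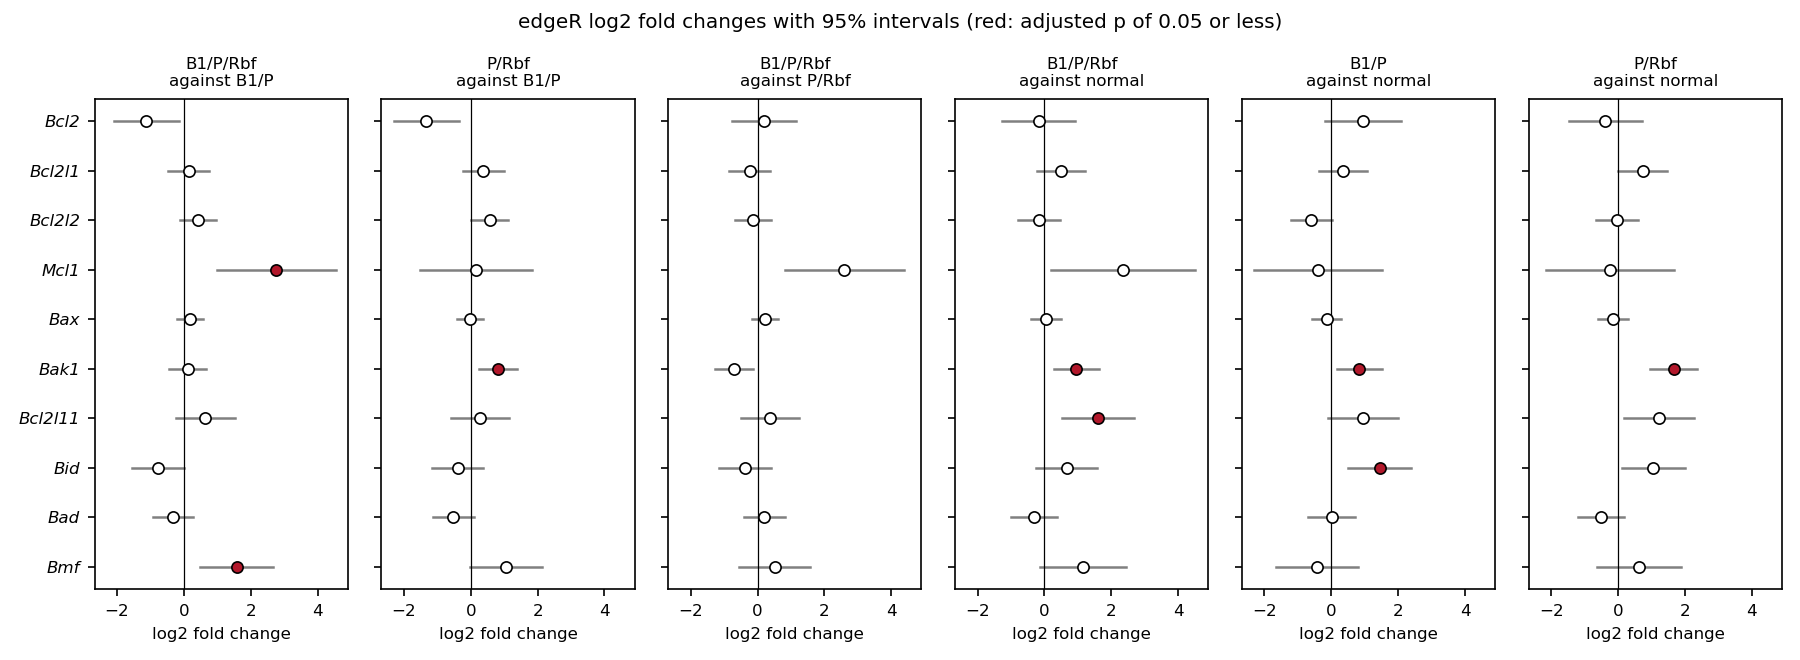
Log2 fold changes of the 10 members (points) with 95% intervals (lines) in 6 comparisons, red where called. Bak1 is red in 4 panels, and the Mcl1 interval is the widest in each panel.

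Of the 4 BH3-only members, 1 was called higher than normal gland in B1/P/Rbf, 1 in B1/P and 0 in P/Rbf tumors, where 37%, 33.8% and 37.7% of all genes were called in either direction. Bcl2l11 was 40.1, 40.0 and 35.1 CPM in normal gland. It was 114, 35.0, 244, 146 and 39.5 CPM in B1/P/Rbf tumors, of which tumors 208857 and 210906 lay at or below the level of normal gland. The group was called higher by 1.59 ± 0.51 (adjusted p = 0.0212), a call that was lost without tumor 208863 (1.13, adjusted p = 0.0600), without any of normal glands 330154 (1.65, adjusted p = 0.0589), 330155 (1.69, adjusted p = 0.0531) and 330156 (1.54, adjusted p = 0.0756), and with the term for the library split (1.19, adjusted p = 0.300). All 5 B1/P tumors (58.4 to 115 CPM) and all 5 P/Rbf tumors (55.1 to 119 CPM) were above all 3 normal glands, where 41.4% and 46.5% of all genes did not overlap, with differences of 0.95 ± 0.49 (adjusted p = 0.149) and 1.23 ± 0.50 (adjusted p = 0.0633). DESeq2 called the latter (adjusted p = 0.0369).

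Bid was 15.1, 22.8 and 16.7 CPM in normal gland and 71.7, 50.1, 50.3, 43.4 and 32.8 CPM in B1/P tumors. The groups did not overlap, as was the case for 41.4% of all genes, and B1/P was called higher by 1.45 ± 0.45 (adjusted p = 0.0198). Without normal gland 330154 or 330156 the adjusted p was 0.0799 and 0.0745, and with the term for the library split the difference was 1.07 (adjusted p = 0.140). P/Rbf tumors had 35.6, 50.2, 43.2, 19.4 and 40.8 CPM (1.06 ± 0.44, adjusted p = 0.0685). In B1/P/Rbf tumors Bid was 40.8, 26.4, 36.7, 34.3 and 6.69 CPM, and the last, tumor 210906, was below every other sample. Without it the B1/P/Rbf difference from normal changed from 0.67 ± 0.43 (adjusted p = 0.238) to 0.93 (adjusted p = 0.0320). Its 20 nearest genes averaging 5 CPM or more had a median log2 difference of 0.14 from the other tumors, against -2.60 for Bid.

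Bmf was 35.3, 27.2, 27.5, 21.8 and 28.0 CPM in B1/P tumors and 63.2, 61.8, 226, 22.0 and 44.2 CPM in B1/P/Rbf tumors. The B1/P/Rbf tumors exceeded all B1/P tumors in 4 of 5, and the group was called higher by 1.58 ± 0.52 (adjusted p = 0.0456), beside its higher epithelial and lower basal sums. Tumor 208863 again held the highest value, and without it the difference was 0.77 (adjusted p = 0.223). In all, 12 of 18 fits that left out 1 library lost the call, over adjusted p values of 0.0206 to 0.223. P/Rbf tumors had 43.8, 37.9, 23.9, 52.0 and 136 CPM, again with 4 of 5 above all B1/P tumors (1.07 ± 0.51, adjusted p = 0.147). The 20 genes nearest to Bmf in tumor 208863 had a median log2 difference of 0.05, so the high value there was not shared by its neighbours. For Bcl2l11 in the same tumor that median was 0.47, against 1.74 for the gene itself. All 3 normal glands (35.5 to 40.0 CPM) lay above all 5 B1/P tumors (41.4% of all genes did not overlap), at a difference of -0.43 ± 0.58 for B1/P (adjusted p = 0.592).

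Bad was not called in any comparison. It was 22.8 to 26.5 CPM in normal gland, 18.0 to 32.2 in B1/P, 11.4 to 28.0 in B1/P/Rbf and 12.4 to 28.0 in P/Rbf tumors. In the 5 tumors where it was lowest, 208863, 210906, 290845, 287842 and 290860, the 20 nearest genes had median log2 differences of -0.93, -0.67, -0.66, -0.52 and -0.59, beside -1.03, -0.96, -0.91, -0.80 and -0.75 for Bad. In tumors 255232 and 287845, the next lowest, the same medians were -0.14 and 0.45, beside -0.38 and -0.32 for Bad.

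**Figure D4:**
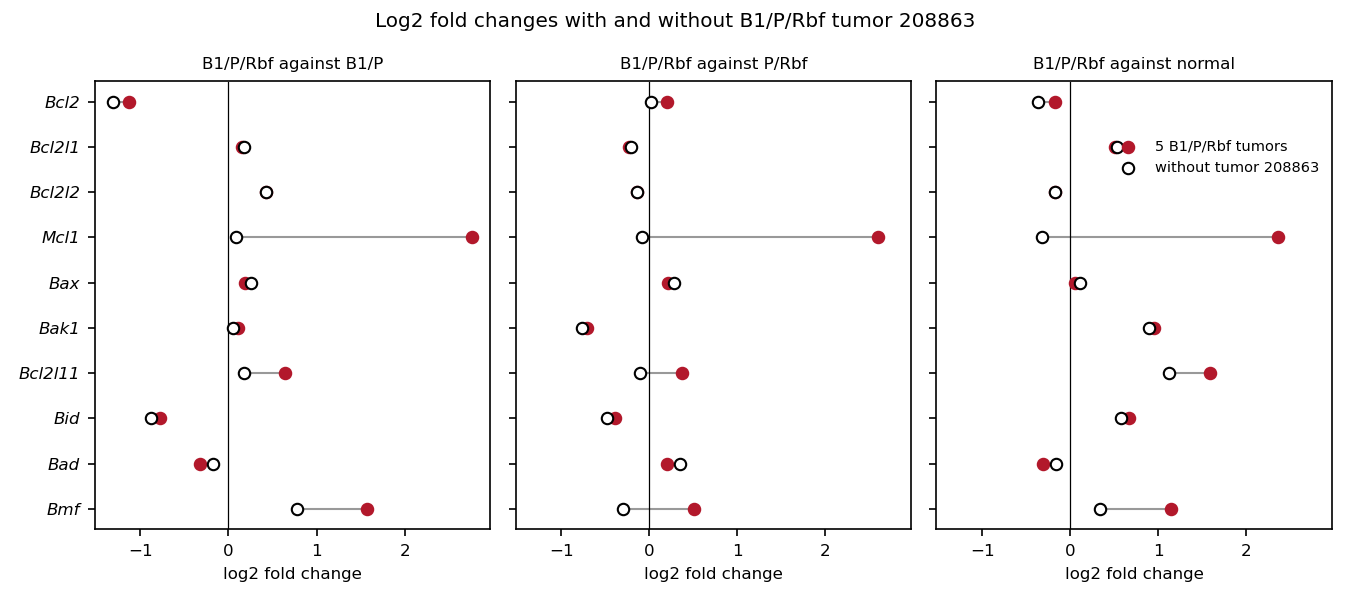
Log2 fold changes of the 10 members in the 3 comparisons of B1/P/Rbf tumors, with all 5 tumors (red) and without tumor 208863 (open). Mcl1 moves from 2.77 to 0.09 against B1/P, and Bmf from 1.58 to 0.77.

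The other 9 family genes were also measured. Bok, a further effector-like gene, was 5.86 to 7.23 CPM in normal gland and was called higher in B1/P/Rbf (17.6 to 26.8 CPM, 1.68), B1/P (5.45 to 35.3 CPM, 1.47) and P/Rbf tumors (7.13 to 56.9 CPM, 2.23). Pmaip1, which encodes the BH3-only protein NOXA, was 6.67 to 8.08 CPM in normal gland and was called higher in B1/P/Rbf (8.15 to 55.6 CPM, 2.41) and P/Rbf tumors (10.1 to 91.8 CPM, 2.83). P/Rbf also exceeded B1/P tumors for Pmaip1 (1.87, adjusted p = 0.0393) and for Bik (1.55, adjusted p = 0.0302), a BH3-only gene. Bcl2l10 was called lower in all tumor groups and was close to absent, at 0.491 to 1.46 CPM in normal gland and at most 0.110 CPM in tumors. Bbc3, which encodes PUMA, and Hrk were not called in any comparison, nor were Bcl2a1a, Bcl2a1b and Bcl2a1d, near-identical copies whose shared reads make their values uncertain.

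Around the family, the apoptosome and caspase list had 3 of 11 genes called higher and 2 lower in both B1/P/Rbf and B1/P tumors against normal, and 4 higher and 2 lower in P/Rbf, where 37%, 33.8% and 37.7% of all genes were called. Apaf1, the scaffold of the apoptosome, rose by 1.82 in B1/P/Rbf and 1.38 in P/Rbf tumors. Endog, a mitochondrial nuclease, fell by 2.54, 2.18 and 1.94 in B1/P/Rbf, then B1/P, then P/Rbf tumors, against glands with muscle markers. Between tumor groups, B1/P/Rbf exceeded B1/P for Apaf1 (0.83) and fell below it for Diablo (-1.08), whose product binds inhibitors of apoptosis. P/Rbf exceeded B1/P most for Cycs (0.81), cytochrome c, and fell below it most for Htra2 (-0.89), a mitochondrial protease.

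Among 5 inhibitors of apoptosis, Birc5, which encodes survivin and is a gene of dividing cells, exceeded normal gland by 3.40 in B1/P/Rbf, by 3.40 in B1/P and by 4.13 in P/Rbf tumors. Birc3 of B1/P/Rbf tumors exceeded that of B1/P tumors by 1.37 (adjusted p = 0.0281), with values up to 149 CPM. Of 9 death receptor genes, Fadd, the adaptor of these receptors, exceeded B1/P in B1/P/Rbf (21.3 to 26.9 against 5.88 to 16.6 CPM, 1.26) and in P/Rbf tumors (0.91), beside their higher epithelial sums. Fas, a death receptor, was 17.6 to 22.2 CPM in normal gland and fell by 2.74 in B1/P/Rbf and 2.94 in P/Rbf tumors, beside the lower lymphocyte markers. Ripk1 rose most in B1/P/Rbf (0.93) and Tnfrsf10b in P/Rbf tumors (1.13), and none of the 9 was called in B1/P against normal, where 33.8% of all genes were. Of 8 partners and turnover genes, Ywhaz, a 14-3-3 protein that binds phosphorylated BAD, rose most in every tumor group over normal, by 1.01, 1.04 and 1.57. Dynll2, a dynein light chain that tethers BMF, fell most in B1/P/Rbf (-0.86), and Vdac2, a mitochondrial channel that binds BAK, in B1/P tumors (-0.63). Fbxw7, a ubiquitin ligase subunit for MCL1, was below its B1/P level in B1/P/Rbf tumors (-0.79).

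The search took the 6 members whose group means spanned at least 1 on the log2 scale. Mcl1, Bcl2l11 and Bmf had their highest mean in B1/P/Rbf, where tumor 208863 was included. Their spans of 1.14, 1.22 and 1.15 thus rest in part on that tumor, and spans without it were not computed. For these 6, the genes most like them over the 18 samples were found by the root mean square difference of centred log2 CPM. For Mcl1 these were Sike1 (0.28) and Anxa9 (0.33), both of chromosome 3 and both high in tumor 208863, against a spread of 1.15 for Mcl1 itself. The likeness of both genes to Mcl1 thus rests on that tumor. Anxa9 also passed the filter of 5 CPM used around Mcl1 only with it. For Bcl2l11 they were Snrnp200 (0.41) and Anapc1 (0.49), which lie on chromosome 2 at chr2:127208386-127240451 and chr2:128610104-128687391, on either side of Bcl2l11 at chr2:128126038-128162547. For Bak1 they were Actg1 (0.28) and Gm12715 (0.32), for Bid Marcksl1 (0.44) and Lima1 (0.47), for Bcl2 Syt11 (0.54) and Rplp0 (0.61), and for Bmf Mospd2 (0.59) and Slc37a1 (0.59), none on the chromosome of its member.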

How the data were processed

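RNA from mammary tumors and glands was made into stranded libraries by the authors, read in pairs, trimmed with cutadapt 1.18 and counted with RSEM 1.3.0. The deposited values are expected counts per gene, not normalized, with totals of 27661173 to 37794889 per sample. A human reference is named in the methods, while all 55450 identifiers are those of GENCODE mouse release 21 (GRCm38). Expected counts were rounded. In R 4.3.3, edgeR 4.0.16 (filterByExpr with a minimum count of 10, TMM, quasi-likelihood test, all 18 samples, group as the only term) gave 6 comparisons with Benjamini-Hochberg adjustment at 0.05. Log2 CPM used a prior count of 2. The pipeline was tested on simulated data. DESeq2 1.42.0, limma 3.58.1 with voom, other scalings, filters and designs, and each library left out were alternatives. Members and lists were chosen with earlier results of these data known. Text names all members, the other family genes, the targeted genes, the largest called rise and fall of each pathway list, and the genes most like each member, while genes around Mcl1 were chosen after their values were seen. Some genes that this rule would name are not reported here. RSEM divides reads shared by near-identical genes. P-values measure the spread between mice.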

Additional observations from a re-analysis of the deposited data

Results flagged for a closer look

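Mcl1 in B1/P/Rbf tumor 208863 was 6317 CPM, far from the other 4 tumors of its group at 204 to 239 CPM, with a gap to its nearest neighbour of 0.954 of the group's log2 range. Bid in B1/P/Rbf tumor 210906 was 6.69 CPM, below the other 4 at 26.4 to 40.8 CPM, with a gap of 0.759 of the range. A gap above 0.71 marks a sample as far from the rest of 5. These were 2 of 30 pairs of member and tumor group examined, and chance marks about 1 in 20 groups.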

How the results depend on the processing

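Of 504 member values under alternatives that kept all libraries, 443 kept their direction and their side of the threshold. Members called by edgeR numbered 2 (Mcl1 and Bmf) in B1/P/Rbf against B1/P. This became 1 with DESeq2 (Bmf), which gave no adjusted p for Mcl1. The count was also 1 without a filter on low counts (Mcl1). With a filter of log2 CPM 6 in 6 samples, which keeps 5 members but not Bmf, it was 1 (Mcl1). In a fit of only these groups it was 1 as well, where Mcl1 and Bmf were lost and Bcl2 was called lower. It became 0 with limma-voom and quantile normalization, with the term for the library split and at an adjusted p of 0.01. For P/Rbf against B1/P, 1 (Bak1) became 2 with DESeq2 (Bak1 and Bcl2) and 0 without a filter, with the stricter filter, in the fit of these groups and at 0.01. With limma-voom, without TMM and with upper quartile scaling it was 1 again, but Bak1 was lost and Bcl2 was called lower. For B1/P/Rbf against normal, 2 (Bak1 and Bcl2l11) became 4 without TMM (Bcl2l1 and Mcl1 gained). The count there became 1 with the stricter filter (Bcl2l11) and in the fit of these groups (Bak1), and 0 with the library split and at 0.01. For B1/P against normal, 2 (Bak1 and Bid) became 3 without TMM (Bcl2l11 gained) and in the fit of these groups (Bcl2 and Bcl2l11 gained, Bak1 lost), 1 with limma-voom and without a filter (Bid), 1 with the stricter filter (Bcl2l2, lower, with Bid not tested), and 0 with the library split and at 0.01. For P/Rbf against normal, 1 (Bak1) became 3 with DESeq2 and in the fit of these groups (Bcl2l11 and Bid gained), and 4 without TMM (Bcl2l1 gained as well). The causes were not tested. Leaving out each library gave 0 to 2, 0 to 1, 0 to 3, 0 to 2 and 1 to 3 members in these comparisons, in this order. Of all genes, the alternatives that kept all libraries called 6.56% to 23.3%, 7.22% to 26.5%, 20.2% to 46.1%, 18.7% to 39.6% and 21.9% to 42.9% in the same order, and those without 1 library 12.1% to 18.1%, 14.4% to 20.5%, 26.1% to 38.2%, 22.7% to 34.6% and 26.9% to 39.1%.

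Directions turned for small values. Without TMM the median of all genes against normal moved by 0.37 for B1/P/Rbf, 0.35 for B1/P and 0.27 for P/Rbf, and Bcl2 (0.18), Bcl2l2 (0.20) and Bad (0.066) in B1/P/Rbf, Bax (0.21) in B1/P, and Bcl2l2 (0.24), Mcl1 (0.026) and Bax (0.10) in P/Rbf became positive, each by less than that shift. Quantile normalization moved that median by at most 0.15. With the library split Bak1 in B1/P/Rbf against B1/P became -0.17, Bcl2l11 in B1/P/Rbf against P/Rbf -0.040 and Bax in B1/P against normal 0.020. Without a filter Bax in P/Rbf against B1/P was 0.003 and Bad in B1/P against normal -0.004, and in the fit of these groups the former was 0.013.

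Leaving out single libraries turned values over these ranges. Against normal, Bad (-0.099 to 0.11) and Bax (-0.26 to 0.073) turned in B1/P, Bax (-0.041 to 0.30) and Mcl1 (-0.32 to 2.64) in B1/P/Rbf, and Bax (-0.25 to 0.10) and Bcl2l2 (-0.16 to 0.10) in P/Rbf. In B1/P/Rbf against B1/P, Bak1 (-0.033 to 0.39) and Bcl2l1 (-0.094 to 0.28) turned, and in P/Rbf against B1/P, Bax (-0.077 to 0.091). In B1/P/Rbf against P/Rbf, Bcl2 (-0.057 to 0.54), Bcl2l1 (-0.47 to 0.072), Bcl2l11 (-0.10 to 0.60), Bmf (-0.29 to 1.08) and Mcl1 (-0.079 to 2.88) turned. DESeq2 gave no adjusted p for Mcl1. No paired analysis was possible because the labels share no replicate numbers between groups. Leaving tumor 208863 out of the CPM filter around Mcl1 was an alternative chosen after seeing the data. Depth did not limit the members, whose lowest value was 206 counts in a sample.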
